A study of Arabidopsis thaliana with 7 samples.

Results

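The abscisic acid (ABA) core signalling genes are the 38 genes of *Arabidopsis thaliana* that carry the hormone signal from its receptor to transcription, out of 33602 genes in the deposited table. They are listed by gene identifier and family, with no threshold on measured values: 14 PYR/PYL receptors (PYR1 and PYL1 to PYL13), 9 clade A protein phosphatases 2C (PP2Cs), 10 SnRK2 kinases (SnRK2.1 to SnRK2.10) and 5 bZIP transcription factors (ABF1 to ABF4 and ABI5). RNA was sequenced from 3 replicate samples of wild-type Col-0, the reference accession, grown as seedlings for 14 days at 22 °C on MS medium in a cycle of 16 h light and 8 h dark. No hormone or stress treatment is named in the labels, and all 3 samples belong to 1 group, so no contrast between conditions exists. The 4 chromatin samples of the series (H3K4me1, H3K4me2, H3K4me3 and input) were not analysed here. Nothing in the labels shows that the replicates were separate cultures, so the spread between them may be technical.

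ABA is a plant hormone of drought, seed maturation and germination arrest. In the absence of ABA, clade A PP2Cs dephosphorylate the SnRK2 kinases and keep them inactive. When ABA binds a PYR/PYL receptor, the receptor docks on the phosphatase and blocks its active site. The released kinases then phosphorylate bZIP factors of the ABF and ABI5 type, which bind ABA-responsive promoter elements, and in guard cells they also act on ion channels that close the stomata.

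The libraries held 30946664, 18493022 and 20764970 counts in replicates 1, 2 and 3. Levels are given as counts per 1000000 library counts (CPM), and genes that averaged 1 CPM or more count as expressed. CPM follow transcript length as well as transcript number, and no transcript lengths of the authors' build were used. Orders and shares below are therefore of sequenced counts within these libraries, not of transcript numbers. Low counts in the table are mostly even numbers (84.5 to 86.2% of those from 1 to 19), and the setting for read pairs is not given. A fragment may therefore have given 2 counts, and limits that rest on counting error are also given on that reading. Together the 38 genes held 0.131% of all counts in replicate 1, 0.134% in replicate 2 and 0.129% in replicate 3. Leaf and root markers were both present: RBCS1A, a Rubisco small subunit, averaged 10326 ± 475 CPM, and PYK10, a beta-glucosidase of root ER bodies, averaged 2385 ± 9.71 CPM (SD, n = 3 each). The 3 leaf markers summed to 21152 to 22779 CPM per library, and the 3 root markers to 2416 to 2436 CPM, with WOX5 of the root tip at 18, 12 and 0 counts.

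Every layer of the pathway was expressed, and 31 of the 38 genes (81.6%) passed 1 CPM, where 56.3% of all genes in the table did so. That background includes the 29.7% of genes with no count in any library. At 10 CPM and over the share was 65.8% (25 genes) against a background of 37.7%, and at 100 CPM and over it was 5.26% (2 genes, ABI1 and SnRK2.2) against 5.9%. The median of the 38 genes was 23.1 CPM, and that of all genes in the table was 2.95 CPM. All 10 kinases and all 5 bZIP factors were expressed, as were 7 of 9 phosphatases and 9 of 14 receptors. In whole seedlings, fewer cells of a type and less RNA per cell cannot be told apart, which holds for every level given here.

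**Figure D1:**
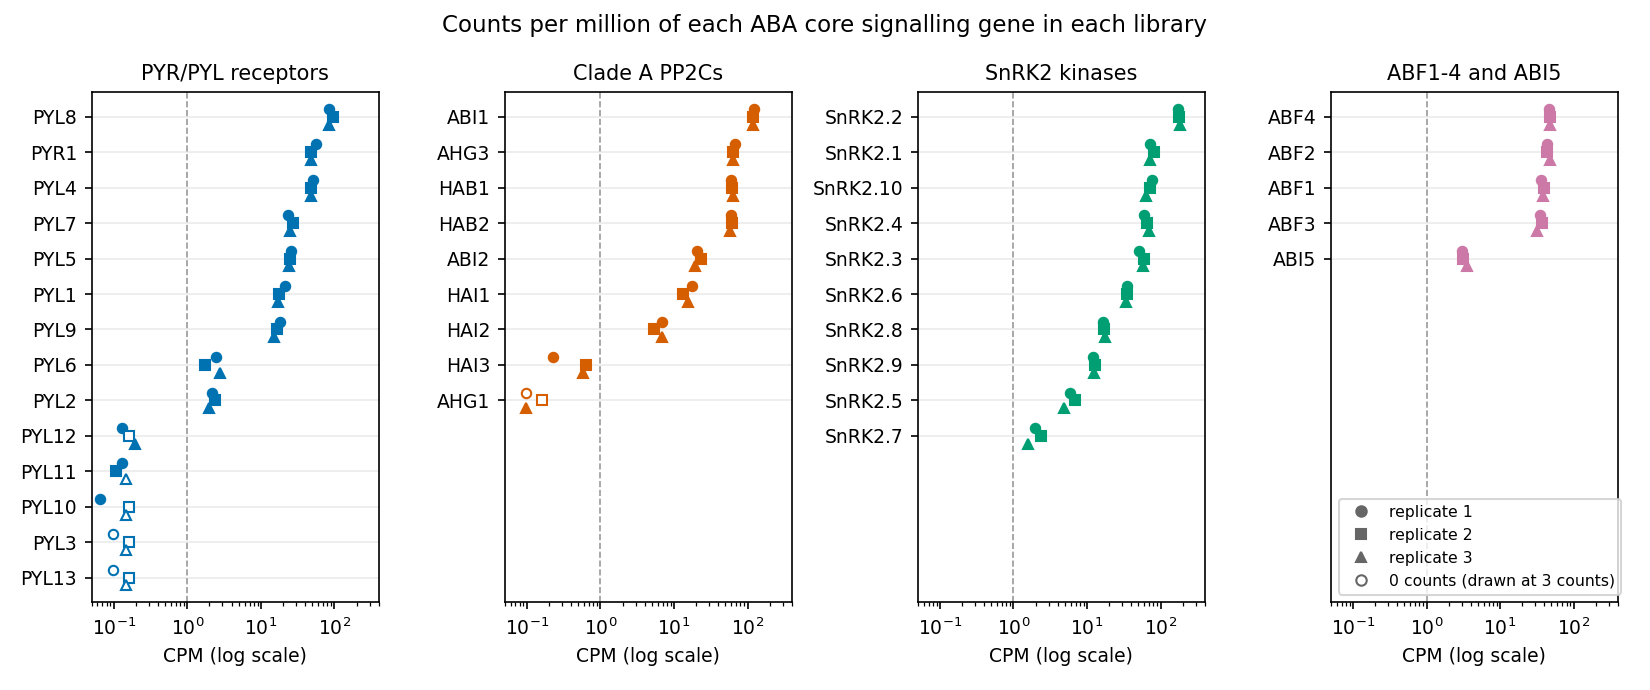
CPM (log scale) of each of the 38 genes in replicates 1 (circles), 2 (squares) and 3 (triangles), by layer and in order of mean CPM. Open symbols are libraries with 0 counts, drawn at the level of 3 counts, and the dashed line marks 1 CPM. 5 receptors and 2 phosphatases lie left of the line, and every kinase and bZIP factor lies right of it.

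Summed over its members, the kinase layer drew the most counts and the bZIP layer the fewest. The SnRK2 sum was 504, 528 and 519 CPM in replicates 1, 2 and 3, a mean of 517 ± 12.1 CPM (SD, n = 3). The PP2C sum was 356, 347 and 346 CPM (349.8 ± 5.70 CPM), and the receptor sum was 288, 282 and 267 CPM (279 ± 11.1 CPM). The bZIP sum was 163, 170.1 and 169 CPM (168 ± 3.77 CPM). This order was the same in 3 of 3 libraries, and no library of a layer overlapped a library of another. The layers hold different numbers of genes, and lengths were not divided out, so the sums do not rank amounts of transcript.

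Ratios within a library do not depend on the scaling of library totals. Kinase counts were 1.48 ± 0.0570 times the phosphatase counts, 1.86 ± 0.0989 times the receptor counts and 3.08 ± 0.0200 times the bZIP counts (SD, n = 3 each). Phosphatase counts were 1.26 ± 0.0391 times the receptor counts, lowest at 1.23 in replicate 2 and highest in replicate 3. All 6 pairs of layers kept their order in 3 of 3 libraries, with an exact two-sided sign-flip p of 0.25 each (0.25 after Benjamini-Hochberg adjustment over the 6 pairs). That is the smallest p that 3 libraries allow, so these orders cannot pass a threshold of 0.05.

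In 3 layers 1 gene led clearly, and in the bZIP layer none did. PYL8 held 32.0 ± 2.27% of the receptor CPM, ABI1 34.2 ± 0.395% of the phosphatase CPM and SnRK2.2 34.6 ± 1.18% of the kinase CPM (SD, n = 3 each). ABF4 held 28.1 ± 0.244% of the bZIP CPM, beside 26.7 ± 1.36% for ABF2. The 3 highest genes of each layer together held 67.7 ± 0.331% of the receptor, 70.4 ± 0.611% of the phosphatase, 62.7 ± 1.15% of the kinase and 77.3 ± 1.604% of the bZIP CPM. With its members' shares squared and summed, the inverse gives the number of equal members that would spread the counts as widely. That number was 5.24 ± 0.204 for the 14 receptors, 4.59 ± 0.0163 for the 9 phosphatases, 5.18 ± 0.146 for the 10 kinases and 4.09 ± 0.0256 for the 5 bZIP factors.

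**Figure D2:**
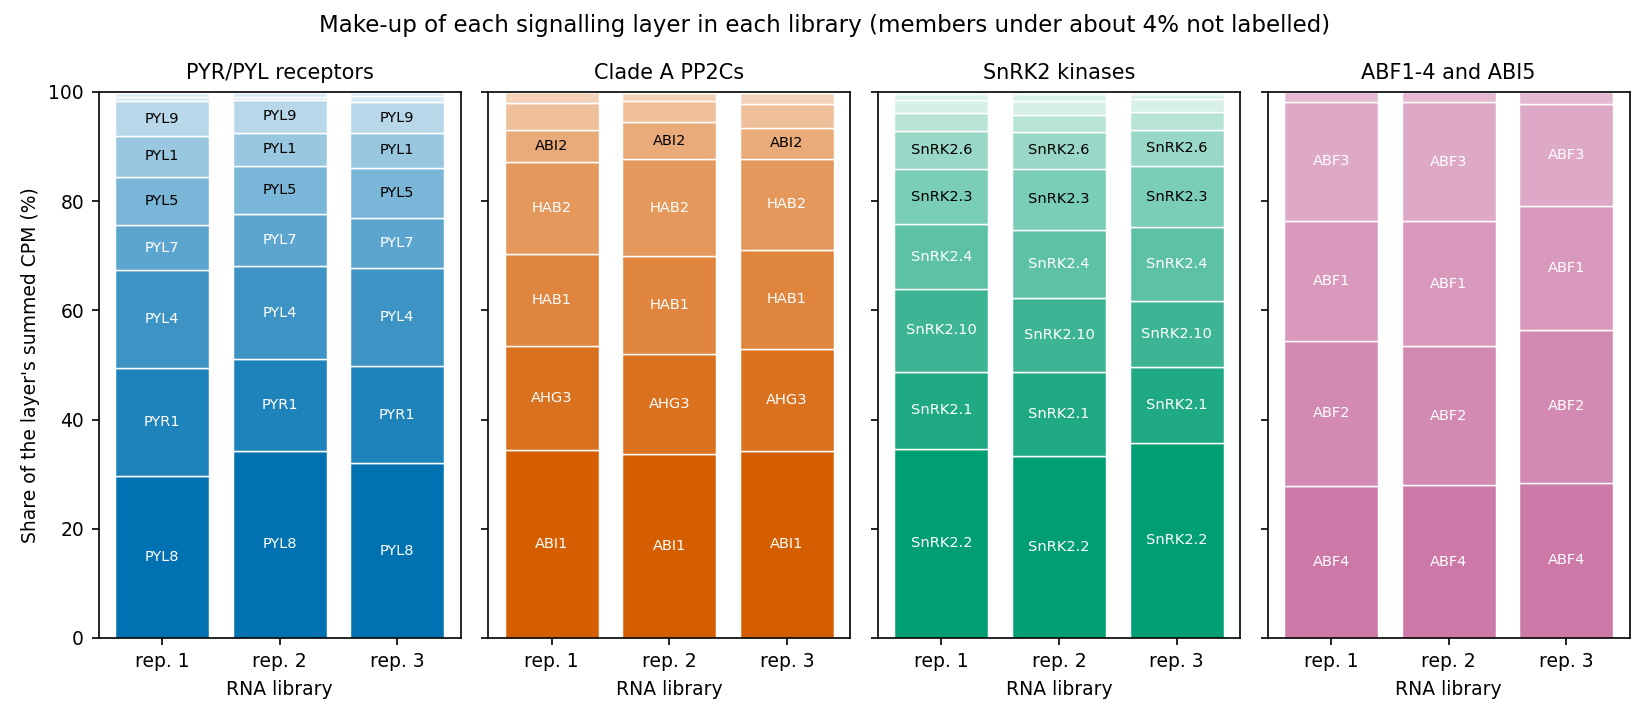
Stacked bars of each gene's share (percent) of its layer's summed CPM in replicates 1, 2 and 3, with the highest member at the bottom and each segment 1 gene. The lowest segment is PYL8, ABI1, SnRK2.2 and ABF4 in the 4 layers. The PYL8 segment runs from 29.7% in replicate 1 to 34.2% in replicate 2, and the ABI1 segment only from 33.7% to 34.5%.

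PYL8 (AT5G53160, RCAR3 in the gene table), a receptor known for ABA responses of the root, was the highest receptor. It stood at 85.5, 96.6 and 85.3 CPM in replicates 1, 2 and 3 and averaged 89.1 ± 6.49 CPM (SD, n = 3). Replicate 2 was the high library, and the lowest PYL8 value lay above every value of any other receptor. PYL8 counts were 1.78 ± 0.268 times those of PYR1, at 1.502, 2.04 and 1.80 times in replicates 1, 2 and 3. Of the PYL8 share, replicate 1 gave 29.7% (95% Wilson interval 28.8 to 30.7%) and replicate 2 34.2% (33.0 to 35.5%), intervals that do not overlap and cover counting error only. With counts halved they widened to 28.4 to 31.0% in replicate 1 and 32.4 to 36.0% in replicate 2. PYL8 varied beyond counting error (edgeR goodness-of-fit, adjusted p = 0.000775), but that call was lost with counts halved (adjusted p = 0.0949) and without replicate 2 (adjusted p = 0.963).

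PYR1 (AT4G17870), the receptor identified with the synthetic agonist pyrabactin, stood at 57.0, 47.5 and 47.3 CPM and averaged 50.6 ± 5.53 CPM. PYL4 (AT2G38310) stood at 51.6, 48.0 and 47.8 CPM and averaged 49.1 ± 2.16 CPM. Both were highest in replicate 1, and their ranges overlap, so PYR1 and PYL4 share the place after PYL8. PYL7 (AT4G01026) and PYL5 (AT5G05440) followed at 25.1 ± 1.85 and 24.9 ± 0.744 CPM, again with overlapping ranges. PYL1 (AT5G46790) at 18.5 ± 2.43 CPM and PYL9 (AT1G01360, RCAR1 in the gene table) at 16.7 ± 1.63 CPM formed another overlapping pair. Of the 8 neighbouring pairs among expressed receptors, 4 had separate ranges and 4 overlapped.

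A gap lay below PYL9. PYL6 (AT2G40330) stood at 2.46, 1.76 and 2.78 CPM and PYL2 (AT2G26040) at 2.13, 2.35 and 1.997 CPM, with overlapping ranges. PYL9 counts were 7.18 times those of PYL6 in the means. The remaining 5 receptors lay under 1 CPM. PYL12 (AT5G45870) had 4, 0 and 4 counts, PYL11 (AT5G45860) 4, 2 and 0 counts, and PYL10 (AT4G27920) 2, 0 and 0 counts in replicates 1, 2 and 3. PYL3 (AT1G73000) and PYL13 (AT4G18620) had 0 counts in each library, which allows up to 0.0970, 0.160 and 0.146 CPM (3 counts) in replicates 1, 2 and 3. With 2 counts per fragment these limits become 0.194, 0.321 and 0.292 CPM (6 counts). Lack of a count in any library was seen for 2 of the 38 genes (5.26%), where 29.7% of all genes in the table had none. PYL11 and PYL12 are direct neighbours in the RefSeq gene table, the only adjacent genes among the 38, and both lay at or near the floor.

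The 3 receptor subfamilies were all represented by expressed members. PYL7 to PYL10, the subfamily of PYL8, held 47.0 ± 2.77% of receptor CPM. PYL4 to PYL6 with PYL11 to PYL13 held 27.5 ± 0.9505%. PYR1 with PYL1 to PYL3, a subfamily known for receptors that form homodimers before ABA binds, held 25.5 ± 2.14%. Within subfamilies, close relatives differed in counts: PYR1 had 2.73 ± 0.0643 times the counts of PYL1, and PYL5 had 11.1 ± 2.64 times those of PYL6 (SD, n = 3 each). PYL2, at 66, 44 and 41 counts, was at least 13.7-fold to 22.0-fold higher than PYL3 in every library, taking PYL3 at 3 counts per library. With 2 counts per fragment that bound falls to at least 6.83-fold to 11-fold.

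ABI1 (AT4G26080), the phosphatase of the classical ABA-insensitive mutant abi1, was the highest PP2C. It stood at 123, 117 and 119 CPM in replicates 1, 2 and 3 and averaged 119.5 ± 3.08 CPM (SD, n = 3). All 3 libraries lay close together, and none came near the next gene. ABI1 counts were 1.84 ± 0.0133 times those of AHG3 in a tight range of 1.82 to 1.85 over the libraries.

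AHG3 (AT3G11410, PP2CA in the gene table), a phosphatase of germination and guard cells, HAB1 (AT1G72770) and HAB2 (AT1G17550) formed a group below ABI1. AHG3 stood at 67.5, 63.3 and 64.4 CPM (65.1 ± 2.14 CPM). HAB1 stood at 60.0, 62.1 and 63.1 CPM (61.7 ± 1.61 CPM), and HAB2 at 60.4, 61.6 and 57.8 CPM (59.9 ± 1.95 CPM). The ranges of AHG3 and HAB1 were separate by only 63.3 to 63.1 CPM, and those of HAB1 and HAB2 overlapped. The pair HAB1 and HAB2 had nearly equal counts, a ratio of 1.03 ± 0.0540, whereas ABI1 had 5.66 ± 0.621 times the counts of its relative ABI2.

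ABI2 (AT5G57050) stood at 20.8, 23.6 and 19.4 CPM, above the HAI phosphatases, which are named for their strong induction by ABA. HAI1 (AT5G59220) stood at 17.7, 13.1 and 15.4 CPM and HAI2 (AT1G07430) at 6.85, 5.34 and 6.92 CPM. Replicate 2 was the low library for both. HAI3 (AT2G29380) had 7, 12 and 12 counts, 0.484 ± 0.225 CPM. AHG1 (AT5G51760), a phosphatase of seeds that PYR/PYL receptors hardly inhibit, had 0, 0 and 2 counts. ABI1, ABI2, HAB1 and HAB2 held 75.03 ± 1.07% of phosphatase CPM, and the other branch, with AHG1, AHG3 and the HAI genes, 24.97 ± 1.07%.

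SnRK2.2 (AT3G50500), a kinase that ABA activates strongly and that acts in germination and root growth, drew the most counts of all 38 genes. It stood at 175, 176 and 185 CPM in replicates 1, 2 and 3 and averaged 179 ± 5.79 CPM (SD, n = 3). The lowest library lay above every value of every other member. Its counts were 2.398 ± 0.196 times those of SnRK2.1, the next kinase by mean CPM, and 3.22 ± 0.224 times those of SnRK2.3 (AT5G66880), its closest relative, at 50.7, 58.8 and 57.6 CPM. SnRK2.6 (AT4G33950, OST1 in the gene table), the kinase of stomatal closure, stood at 35.5, 35.4 and 34.1 CPM and averaged 35.0 ± 0.762 CPM. Its coefficient of variation of 2.18% was the lowest of the 31 expressed members.

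Stomata are a small part of a seedling, and the guard-cell markers were detected in every library. All 5 markers were expressed, where 56.3% of all genes in the table were. They summed to 83.4, 86.4 and 91.8 CPM in replicates 1, 2 and 3. FAMA, a guard-cell fate factor, averaged 40.9 ± 3.26 CPM. SLAC1, the anion channel that SnRK2.6 phosphorylates, averaged 10.9 ± 1.502 CPM, and HT1, a kinase of the guard-cell CO2 response, was the lowest at 4.599 ± 0.615 CPM. The marker sum was highest in replicate 3, where SnRK2.6 was lowest. SLAC1 was also lowest there, at 9.40 CPM, and the other markers were highest there. SnRK2.6 was not called as varying beyond counting error (edgeR goodness-of-fit, adjusted p = 0.770), so its order over the libraries is not firm. The part of guard cells in the SnRK2.6 level was not tested.

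Kinases that ABA does not activate, most of which respond to osmotic stress, made up a large share of the layer's counts. SnRK2.1 (AT5G08590) stood at 71.2, 80.8 and 72.4 CPM (74.8 ± 5.25 CPM). SnRK2.10 (AT1G60940) stood at 76.6, 71.6 and 62.8 CPM, and SnRK2.4 (AT1G10940), its close relative, at 59.3, 66.2 and 69.9 CPM. SnRK2.10 overlapped both of them: it was above SnRK2.1 in replicate 1 and below it in the other libraries, so the place after SnRK2.2 is shared. SnRK2.10 was higher than SnRK2.4 in replicates 1 and 2 and lower in replicate 3, a ratio of 1.09 ± 0.196. SnRK2.9 (AT2G23030) at 12.4 ± 0.482 CPM and SnRK2.5 (AT5G63650) at 5.81 ± 0.983 CPM were the low members of this subgroup. SnRK2.1 had 13.0 ± 1.71 times the counts of SnRK2.5.

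The 3 strongly ABA-activated kinases (SnRK2.2, SnRK2.3 and SnRK2.6) held 52.1 ± 1.15% of kinase CPM, and the 5 not ABA-activated ones 44.2 ± 1.18%. SnRK2.8 (AT1G78290) and SnRK2.7 (AT4G40010), which ABA activates weakly, held 3.65 ± 0.0384%, with SnRK2.8 at 16.9 ± 0.664 CPM and SnRK2.7 at 1.96 ± 0.397 CPM. Counted without the other kinases, the strongly activated ones drew 0.968 ± 0.0675 times the receptor counts, 0.771 ± 0.0350 times the phosphatase counts and 1.61 ± 0.0251 times the bZIP counts. Their ratio to the receptors was 0.906, 0.958 and 1.04 in replicates 1, 2 and 3, so its side of 1 turned between libraries.

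The 4 ABF genes were expressed at similar counts. ABF4 (AT3G19290, also known as AREB2) stood at 45.5, 47.5 and 48.0 CPM and averaged 47.0 ± 1.29 CPM (SD, n = 3). ABF2 (AT1G45249, AREB1), which acts with ABF3 and ABF4 in vegetative drought responses, stood at 43.2, 43.3 and 47.6 CPM and averaged 44.7 ± 2.55 CPM. ABF4 exceeded ABF2 in each library, by ratios of 1.06, 1.10 and 1.01, but their ranges overlap. ABF1 (AT1G49720) stood at 36.1, 39.0 and 38.4 CPM and averaged 37.8 ± 1.51 CPM. Its range and that of ABF3 (AT4G34000) at 34.8 ± 2.82 CPM also overlapped.

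ABI5 (AT2G36270), the factor that arrests growth after germination, stood apart from the ABFs at 3.04, 3.10 and 3.60 CPM, 1.94 ± 0.167% of bZIP CPM. Its seed partners were low as well. ABI3, a seed maturation regulator, had 18, 10 and 4 counts, and ABI4 had 0 counts in each library. Of the 6 seed markers 3 were expressed, where 56.3% of all genes in the table were. The 6 summed to 28.7, 25.5 and 29.9 CPM in replicates 1, 2 and 3. The storage protein genes CRA1 at 16.2 ± 1.129 CPM and CRC at 9.07 ± 2.63 CPM gave most of it, and LEC1 had 0 counts. AHG1 and ABI5, core members best known from seeds, were each the lowest gene of their layer. Members that act in germination were not all low, with AHG3 at 65.1 CPM and SnRK2.2, the highest kinase, at 179 CPM. Of the 3 pollen markers only TUA1 was expressed, at 40.2 ± 2.66 CPM, beside the same background of 56.3%. ANX1 had 0, 0 and 4 counts in replicates 1, 2 and 3, and ANX2 had 0 counts in each library. Whether the TUA1 counts came from pollen was not tested.

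How firmly 3 libraries place each gene was asked with edgeR's goodness-of-fit test, fitted to all 18915 genes of at least 1 CPM with Benjamini-Hochberg adjustment. Against the spread of genes of their own level, 0 of the 31 expressed members passed an adjusted p of 0.05, where 0.148% of all tested genes did (28 genes). At an unadjusted p under 0.05 the members' count was also 0, and the background was 4.18%. The smallest unadjusted p among the members was 0.0533, for SnRK2.10, followed by PYR1 at 0.0623. A miss does not show that a gene was the same in all 3 libraries. On simulated data the test recovered only 5 of 50 genes shifted 1.5-fold in 1 library. Among the expressed members the widest ratio of highest to lowest library was 1.57, for PYL6, so misses were likely at such differences.

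Against counting error alone, 11 of the 31 members (35.5%) varied between replicates in the same test with the dispersion set to 0, where 32.8% of all tested genes did. The share is close to the background. The 11 were PYR1, PYL1, PYL8, ABI2, HAI1, SnRK2.1, SnRK2.2, SnRK2.3, SnRK2.4, SnRK2.10 and ABF3. Because low counts are mostly even, the test was repeated on halved counts. There 2 of the 31 (6.45%) remained called beside a background of 6.38%, PYR1 (adjusted p = 0.0132) and SnRK2.10 (adjusted p = 0.00749). The calls of both rested on 1 library in the deposited counts: PYR1 had an adjusted p of 6.39e-06, and 0.992 without replicate 1, and SnRK2.10 had 1.65e-06, and 0.158 without replicate 3. Without replicate 1, 2 or 3 the number of members called was 5, 7 and 7.

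**Figure D3:**
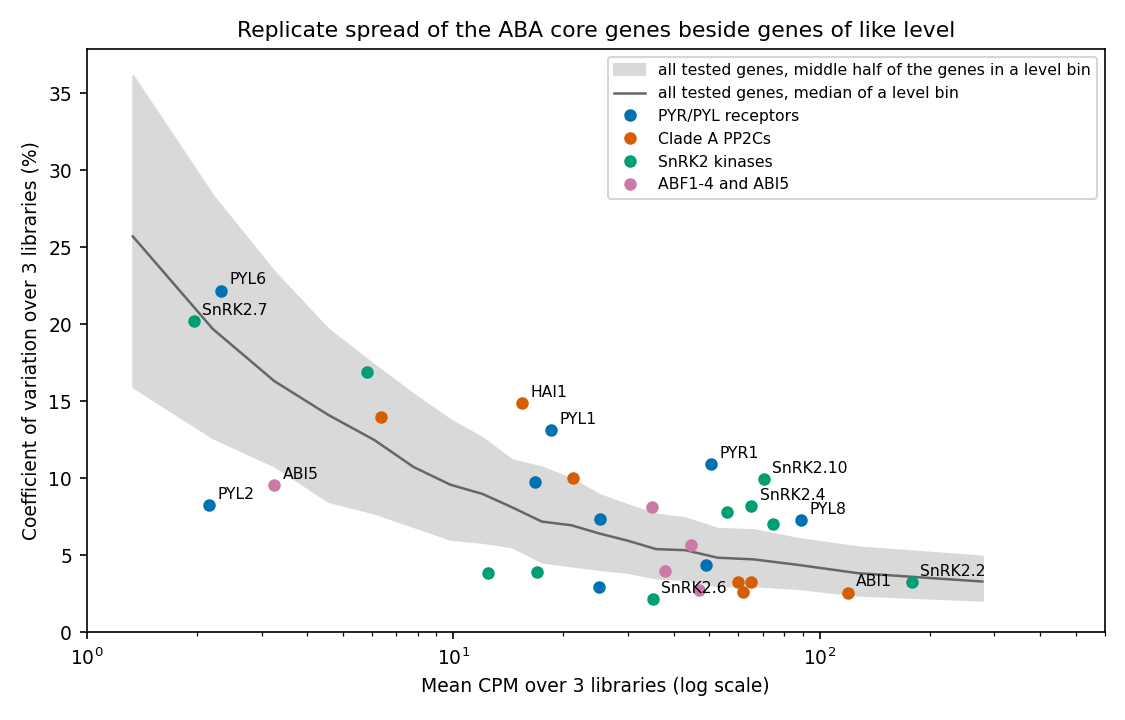
Coefficient of variation over the 3 libraries (percent) against mean CPM (log scale) for the 31 expressed members, coloured by layer. The grey line and band are the median and the range from the lower to the upper quartile of all tested genes in 20 bins of level. SnRK2.10, PYR1, PYL1 and HAI1 lie above the band, and SnRK2.6, PYL2 and ABI5 below it.

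The coefficient of variation had a median of 7.37% over the 31 expressed members and 7.22% over all tested genes. Against genes in the same bin of level, 17 of the 31 lay above the bin's median. PYR1 varied by 10.9%, beside a bin median of 4.85%, and SnRK2.10 by 9.95%, beside 4.74%. HAI1 varied by 14.9% beside 8.13%, and PYL1 by 13.1% beside 7.20%. At the other end SnRK2.6 varied by 2.18% beside 5.41%, and PYL5 by 2.98% beside 6.43%. The phosphatase layer had the lowest median, 3.29% over its 7 expressed members, and the receptor layer the highest, 8.28% over 9, but levels differ between the layers and spread falls with level.

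The layers were not highest in the same library. PYR1 and PYL1, which are close relatives, were both highest in replicate 1, by 0.27 and 0.32 on the log2 scale over the mean of the other libraries. PYL8 and PYL7 were highest in replicate 2, by 0.18 and 0.17, but PYL9 of their subfamily was highest in replicate 1. PYL4 and PYL5 of another subfamily were also highest in replicate 1, and PYL2, of the PYR1 subfamily, in replicate 2. Among the 9 expressed receptors, 5, 3 and 1 were highest in replicates 1, 2 and 3. The receptor sum was lowest in replicate 3, as were 7 of its 9 expressed genes. The kinase sum was lowest in replicate 1, as were 6 of 10 kinases, among them SnRK2.4 and SnRK2.3 at -0.20 each, and 4 of the 5 bZIP factors were lowest there too. Over all 31 members, 10, 12 and 9 were highest in replicates 1, 2 and 3, where 33.3%, 33.7% and 33% of all tested genes were. In the other direction, 12, 5 and 14 were lowest in replicates 1, 2 and 3 (38.7%, 16.1% and 45.2%), where 31.9%, 33.1% and 34.9% of all tested genes were. Ribosomal RNA genes took 1.201%, 1.39% and 2.97% of counts in replicates 1, 2 and 3, and their part in these shifts was not tested.

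**Figure D4:**
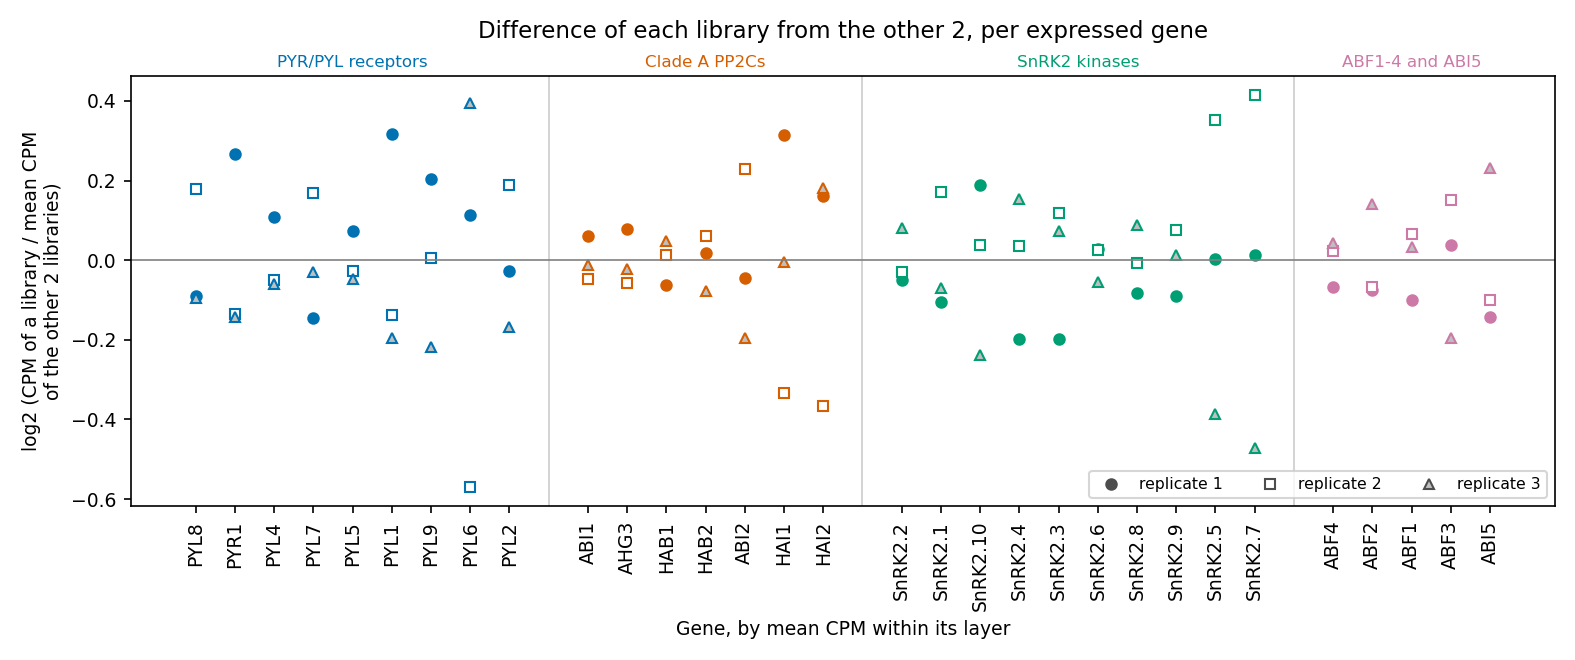
For each of the 31 expressed members, the log2 ratio of its CPM in 1 library to the mean CPM of the other 2 libraries, with replicate 1 as filled circles, replicate 2 as open squares and replicate 3 as grey triangles. Low-count genes spread most, with PYL6 in replicate 2 at -0.57 and SnRK2.7 in replicate 3 at -0.47. PYR1 and PYL1 stand highest in replicate 1, and SnRK2.10 and SnRK2.4 are turned against each other between replicates 1 and 3.

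Each step of ABA synthesis on the list had an expressed gene, and at the cleavage step 1 of 5 family members passed 1 CPM. Of 10 synthesis genes 6 were expressed (median 9.89 CPM), a share near the 56.3% of all genes in the table that were. That background also applies to the counts of expressed genes in the lists below, which are short. ABA1, the zeaxanthin epoxidase, averaged 115 ± 7.11 CPM and AAO3, the abscisic aldehyde oxidase, 38.0 ± 1.76 CPM. Among the NCED dioxygenases, which cleave the carotenoid precursor, NCED3 stood at 8.24, 8.98 and 7.31 CPM, and the others lay under 1 CPM. NCED9 had 8, 6 and 8 counts, NCED5 4, 6 and 0, NCED2 0, 8 and 0, and NCED6 none. NCED3, known for its induction by drought, was the only NCED of the list above 1 CPM.

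All 8 genes of ABA turnover and conjugation were expressed (median 8.21 CPM). BGLU18, a glucosidase that frees ABA from its glucose ester, averaged 359 ± 7.79 CPM and BGLU33, its vacuolar counterpart, 53.4 ± 1.54 CPM. The CYP707A hydroxylases that inactivate ABA ran from CYP707A2 at 9.59 ± 1.96 CPM down to CYP707A4 at 1.68 ± 0.276 CPM, the lowest of the list. All 4 transporter genes were expressed (median 13.4 CPM), led by NPF4.6, an importer, at 55.1 ± 1.04 CPM and ABCG25, an exporter, at 18.02 ± 0.127 CPM. ABCG40 was the lowest at 7.04 ± 0.629 CPM.

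Genes known to respond to ABA had a higher median than the core, 42.7 CPM over 12 genes, of which 11 were expressed. RD22 averaged 215 ± 1.98 CPM and ERD10, a dehydrin gene, 159.6 ± 7.49 CPM. RAB18, a dehydrin gene often used as an ABA reporter, averaged 142 ± 14.9 CPM, whereas RD29B averaged 8.32 ± 1.64 CPM. EM1, a late embryogenesis gene, was the lowest, with 16, 14 and 20 counts. Among other regulators 7 of 9 were expressed (median 10.9 CPM), with AT5G22090 at 90.1 ± 4.29 CPM and KEG, a ubiquitin ligase that targets ABI5, at 73.0 ± 4.10 CPM. Of the other group A bZIP genes, relatives of the ABFs, 3 of 4 were expressed (median 13.5 CPM). GBF4 averaged 28.4 ± 3.02 CPM and AREB3 22.8 ± 1.94 CPM, and DPBF2 had 0 counts. The number of genes of these lists past the own-level test was 0, and the smallest adjusted p (edgeR) was 0.672, for UGT71B6.

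**Figure D5:**
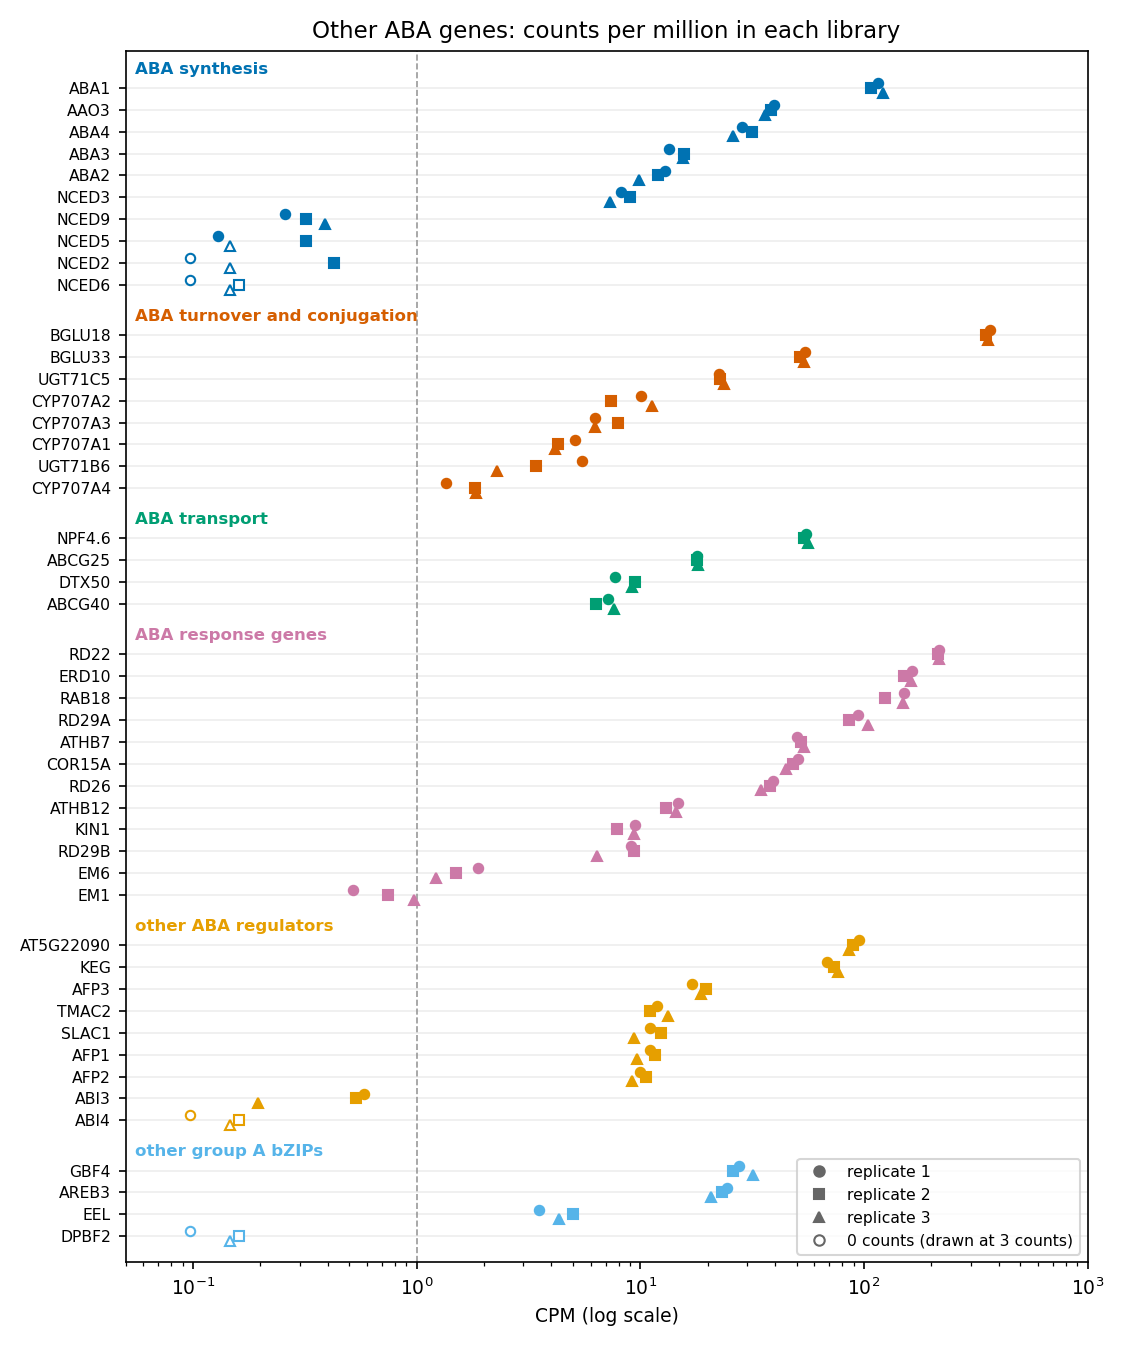
CPM (log scale) in replicates 1 (circles), 2 (squares) and 3 (triangles) of ABA genes outside the core, by list and in order of mean CPM. Open symbols are libraries with 0 counts, drawn at the level of 3 counts, and the dashed line marks 1 CPM. BGLU18 at 359 CPM and RD22 at 215 CPM are farthest right, and 4 of 5 NCED genes, EM1, ABI3, ABI4 and DPBF2 lie left of the line.

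Overlapping genes limit some of these values. In the RefSeq gene table of assembly TAIR10.1, 10 of the 38 genes overlap another gene of the count table: PYL7, ABI1, SnRK2.1, SnRK2.3, SnRK2.4, SnRK2.5, SnRK2.8, ABF1, ABF3 and ABF4. The counting is not stated to use strand, so reads in an overlap may have been given to either gene or dropped. ABI1 at 119.5 CPM overlaps MEK1 (AT4G26070) at 15.7 CPM, and SnRK2.5 at 5.81 CPM overlaps AT5G63640 at 34.1 CPM. The partner was below its member in 8 of the 10 pairs, and above it for SnRK2.5 and for SnRK2.8, whose neighbour AT1G78280 stood at 33.6 CPM. The leaders PYL8 and SnRK2.2 have no overlapping gene in that table.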

How the data were processed

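RNA from 3 replicate seedling samples was measured; the 4 chromatin samples were not analysed here. The values are gene-level raw counts as deposited by the authors in a table of 3 RNA columns. The submitters' processing notes name build TAIR10 and, with no role or order, deepTools 3.5.1, featureCounts, SAMtools 1.13, Bowtie2 2.4.5, HISAT2 and cutadapt. Per the labels' protocols, libraries were made with a strand-specific kit. The sources used here give neither the annotation release nor how strand, multi-mapping reads and read pairs were counted.

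From the counts, edgeR 4.0.16 (R 4.3.3) gave CPM (TMM factors 0.989 to 1.01). Replicate spread was tested per gene by the deviance of an intercept-only fit (chi-square), with trended dispersion or dispersion 0, over all genes of at least 1 CPM, Benjamini-Hochberg adjusted, threshold 0.05. The test with trended dispersion was first tried on simulated data, with genes shifted in 1 library. It recovered 5 of 50 genes shifted 1.5-fold, 35 of 50 shifted 2-fold, 45 of 50 shifted 4-fold and 47 of 50 shifted 8-fold. Of 18715 unchanged genes it called 4. Among genes of 1 to 19 counts 84.5 to 86.2% of counts were even, beside 49.9 to 51.1% at 1000 counts and over.

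Levels had been planned per coding length. No lengths of that build were used, so levels are CPM. RefSeq's gene table (assembly TAIR10.1) held all 38 members and was used only for symbols and neighbours. Neighbours in an order are separate where their 3 library values do not overlap. Members and lists were chosen with earlier results of these data known. Full values are given for the 3 highest genes of each layer, those under 1 CPM and those past the test. For the other ABA lists the 2 highest and the lowest are named, and of the cell type markers only some are named. Intervals and floors (3 counts) cover counting error only. Alternatives with 2 counts per fragment were chosen after seeing the data. Halved counts had been planned only for the numbers of varying genes over the whole table. Totals without rRNA genes had been planned only for the layer sums. All other uses of these alternatives were chosen after seeing the data. Promoter and protein sequences were not used here.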

Additional observations from a re-analysis of the deposited data

How the results depend on the processing

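The number of expressed members was 31 in every alternative tried (0.5 CPM, DESeq2 size factors, no scaling, rRNA genes left out of the totals, halved counts, each replicate left out) except 30 at 2 CPM. The layer sums moved by less than 1 SD, except that leaving rRNA genes out of the totals gave 356 CPM for the phosphatases. PYL8, ABI1, SnRK2.2 and ABF4 led their layers under each setting. Leaving out each replicate gave 274 to 287 CPM for the receptors, 347 to 353 CPM for the phosphatases, 508 to 523 CPM for the kinases and 165 to 169.7 CPM for the bZIP factors. Over all genes, those varying beyond genes of their own level numbered 28, and 130 without a filter on low counts; without replicate 1, 2 or 3 they numbered 17, 29 and 3. Members called were 0 in each of these. Those varying beyond counting error numbered 6197, and 1207 with counts halved and 2964, 3862 and 3172 without replicate 1, 2 or 3. Members varying beyond counting error numbered 11, and 2 with counts halved, 10 with DESeq2 size factors or without a filter, and 5 to 7 with a replicate left out. Division by coding length or gene span was not run. No paired analysis was possible because there is 1 RNA group. Depth limits the 7 members under 1 CPM most, which had at most 12 counts in a library.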

Other observations

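Some ABA-inducible genes shared a low library. RAB18 stood at 151, 125 and 150.0 CPM in replicates 1, 2 and 3, RD29A at 94.2, 86.1 and 105 CPM, and CYP707A2 at 10.1, 7.43 and 11.3 CPM. The other CYP707A genes were lowest elsewhere, CYP707A1 in replicate 3 and CYP707A3 and CYP707A4 in replicate 1. HAI1 and HAI2 were lowest in replicate 2 as well, as were ABI1 and AHG3, but over the core members 5 of 31 (16.1%) were lowest there, where 33.1% of all tested genes were. Of the 11 expressed ABA response genes 6 were lowest in replicate 2, 4 in replicate 3 and 1 in replicate 1. The sum of the 12 genes was 803, 746 and 799 CPM. The genes were picked out after their values were seen, and none passed the test against genes of its own level (RAB18 adjusted p = 0.901, edgeR goodness-of-fit). Against counting error on halved counts, RAB18 (adjusted p = 6.59e-06) and RD29A (adjusted p = 0.00487) were called, as were 6.38% of all tested genes. CYP707A2, HAI1 and HAI2 were not called there (adjusted p = 0.147, 0.136 and 0.562). RD29B, another ABA response gene, was highest in replicate 2, at 9.11, 9.41 and 6.43 CPM in replicates 1, 2 and 3, as were the core members PYL8, ABI2 and SnRK2.1.

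UGT71B6, an ABA glucosyltransferase, had the widest spread of the expressed ABA genes outside the core. It stood at 5.46, 3.42 and 2.29 CPM in replicates 1, 2 and 3, a coefficient of variation of 43.2%. It varied beyond counting error also with counts halved (edgeR goodness-of-fit, adjusted p = 0.00724), as did 6.38% of all tested genes. Against genes of its own level it was not called (adjusted p = 0.672).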
